A study of Xenopus laevis with 115 samples.

Results

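Transcripts of the early ectoderm that stayed low after nuclear transfer formed a list of 145 in Xenopus laevis. They were chosen by measured values in the experiments with the inhibitor SGC-CBP30, here called the CBP30 series. Expression was given as CPM, the expected count of a transcript scaled to the total of its library. A transcript entered the list when 3 limits on medians were met. The median over 11 libraries of ectoderm from fertilised embryos (IVF) was at least 2 CPM, the median over 6 libraries of control donor endoderm was at most 0.25 of that, and the median over 12 libraries of control nuclear-transfer (NT) ectoderm was at most 0.5 of it. The rule kept at most 200 transcripts with the lowest ratio of NT to IVF. Of 70042 XBmRNA targets among 72076 in all, 18422 reached the IVF minimum, 3608 were also low in the donor (called donor-low below), and 145 met all 3 limits, so the maximum of 200 was not reached. The identifiers of 96 of the 145 were also present in the experiments with the inhibitor A-485, here called the A485 series, whose files list 44441 targets.

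In nuclear transfer a nucleus of one cell type is placed in an egg, and the embryo that develops has to switch on genes that the donor nucleus did not use. When an endoderm nucleus is used, the ectoderm of the resulting embryo (the animal cap) must form from a nucleus that came from another germ layer, and genes that are under-activated there are one known form of transcriptional memory of the donor. The proteins p300 and CBP are acetyltransferases that bind acetylated chromatin through a bromodomain; SGC-CBP30 blocks that domain, A-485 blocks the catalytic site, and A-486 is known as an inactive relative of A-485.

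Donor endoderm was taken at stage 18 from wild-type fertilised embryos kept from stage 12 in 40 µM SGC-CBP30, 30 µM A-485 or a control, and ectoderm of IVF and NT embryos was collected at stage 11. The control was DMSO in the CBP30 series and A486, as the labels spell it, in the A485 series. NT groups are named for the treatment of the donor. The CBP30 series held 11 IVF, 12 DMSO NT, 11 CBP30 NT, 6 DMSO donor and 5 CBP30 donor libraries, and the A485 series held 4 IVF, 13 A486 NT, 11 A485 NT, 6 A486 donor and 6 A485 donor libraries, each series in 3 experiments. The labels do not say whether libraries came from separate embryos, so p-values measure the spread between these samples, which may be technical. In all, 4 further IVF abundance files of the A485 series were tied to no sample record. Their names carry the tag of the experiment 2 files of that series, but no label says that they belong to it. They are called the unrecorded IVF libraries.

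Libraries held 4257500 to 24924000 expected counts, the lowest being an unrecorded IVF library. Library 1 of the IVF group of the A485 series stood apart: its summed CPM over the 96 members was 25951, against 10599 to 11349 in the other 3, while 55 of the 96 were at or under 0.5 of the CBP30-series IVF median there, against 19 to 24 in the other 3. The number of members called lower in each comparison resting on it is given with and without it. Fold changes of single members and medians over members are given with it unless said otherwise. The tissue fields of 1 A485 donor library and 1 A485 NT library of experiment 3 contradict their titles, and both were kept by title. The files pair the identifiers with neither symbols nor sequences, so members are given by identifier, and by gene identifier where the A485 files pair one, and neither roles nor the germ-layer markers of the tissues were read. Only 32 of the 96 shared members have the same target length in both series. Levels of 1 identifier set across the series therefore need not be of the same sequence, and each series was normalized on its own.

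Among the 145 members the ratio of the DMSO NT median to the IVF median ran from 0.0709 to 0.499 with a median of 0.367, and it was under 0.25 in 33. These ratios chose the members and are a description. The IVF medians ran from 2.00 to 794.8 CPM with a median of 9.53 CPM; 41 members were under 5 CPM and 14 were at 100 CPM or more. The median ratio of donor to IVF was 0.0619, and 12 members had a donor median of 0. The DMSO NT median was above the donor median in 142 of the 145, and among the 133 with a donor median above 0 it was a median of 5.22 times the donor median. In bulk tissue, fewer cells that express a transcript and less RNA per cell cannot be told apart. Per length, the median over members was 10.4 TPM (the authors' length-scaled values) in IVF and 3.59 TPM in DMSO NT.

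At the edges of the rule the values were continuous. The last members inside the NT limit were XBmRNA7643 at a ratio of 0.492, XBmRNA20050 at 0.496 and XBmRNA39594 at 0.499. Just outside it were XBmRNA59026 at 0.502, XBmRNA71747 at 0.503 and XBmRNA48580 at 0.506. The donor limit had XBmRNA32819 inside at a donor to IVF ratio of 0.245 and XBmRNA78886 outside at 0.251, and the IVF minimum had XBmRNA55536 inside at 2.00 CPM and XBmRNA45893 outside at 1.99 CPM.

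The most abundant members per library were XBmRNA66118 (gene XBXL10_1g34999), XBmRNA22069, XBmRNA1436 (XBXL10_1g941), XBmRNA66127 (XBXL10_1g35010), XBmRNA66122 (XBXL10_1g35005), XBmRNA30610 (XBXL10_1g16297), XBmRNA48581 (XBXL10_1g25969), XBmRNA48934 (XBXL10_1g26158), XBmRNA45132 (XBXL10_1g24124) and XBmRNA79913. Per length XBmRNA66118 was the higher of the first pair, with an IVF median of 509 TPM against 124 TPM for XBmRNA22069, and in DMSO NT the values were 154 TPM and 52.8 TPM. The 2 differed in how evenly they were low. XBmRNA66118 measured 1144, 478, 879 and 596 CPM in the IVF libraries of experiment 1, 2098, 2092 and 2517 CPM in those of experiment 2 and 147, 329, 795 and 743 CPM in those of experiment 3. In DMSO NT it measured 135, 249.5, 1130.0 and 866 CPM in experiment 1, 192, 145 and 167 CPM in experiment 2 and 572, 156, 854, 1010.0 and 76.5 CPM in experiment 3. All NT libraries lay below all IVF libraries in experiment 2, while in experiments 1 and 3 the groups overlapped, with NT libraries above 800 CPM in both. XBmRNA22069 ranged from 265 to 964 with a median of 785 CPM in IVF and from 100.5 to 639 with a median of 331 CPM in DMSO NT, so its groups overlapped as well, over a narrower range. XBmRNA48581 ranged from 152 to 326 with a median of 228 CPM in IVF and from 45.2 to 194 with a median of 81 CPM in DMSO NT, where 3 NT libraries reached the IVF range.

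Fractional expected counts arise where reads fit more than 1 target. XBmRNA66113, XBmRNA66118, XBmRNA66122 and XBmRNA66127 had fractional expected counts in 11, 9, 11 and 11 of the 11 IVF libraries, and XBmRNA65811, XBmRNA65817 and XBmRNA65820 in 11, 10 and 11. With which targets they share reads was not read, as the files hold no sequences, and fractional counts in at least 6 of the 11 libraries occurred in 66.3% of the other donor-low transcripts. The single values of these members are uncertain to that extent.

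The lowest ratios of DMSO NT to IVF belonged to XBmRNA55536, XBmRNA61438, XBmRNA41968 (XBXL10_1g22528), XBmRNA70173, XBmRNA55733 (XBXL10_1g29605), XBmRNA33270 (XBXL10_1g18022), XBmRNA24487, XBmRNA63269, XBmRNA58611 and XBmRNA29516 (XBXL10_1g15792), from 0.0709 to 0.170. They were low in different ways. XBmRNA61438 was even: it ranged from 1.5 to 3.94 with a median of 2.48 CPM in IVF and from 0 to 0.66 with a median of 0.256 CPM in DMSO NT, with no overlap, although library 2 of the experiment 1 DMSO donors held 11.6 CPM. XBmRNA55536 lay at the IVF minimum and was uneven, with 2.0, 11.4, 2.97 and 6.41 CPM in IVF of experiment 1 but 1.3, 0, 0.506 and 0.349 CPM in experiment 3, and up to 2.3 CPM in DMSO NT. XBmRNA41968 was highest in IVF of experiment 2, at 31, 26.1 and 40.2 CPM. In experiment 1 IVF measured 0.772 to 3.12 CPM, and DMSO NT reached 20.4 CPM. The DMSO donors of experiment 1 held 0.341 and 5.54 CPM, so the donor was not low throughout. Donors of experiments 2 and 3 held at most 0.0528 and 3.58 CPM. In experiment 3 the median was 5.69 CPM in IVF and 0.421 CPM in DMSO NT, which reached 16.8 CPM in a single library. The low ratio of that member thus joined experiments 2 and 3, where the NT median was low, with experiment 1, where it was not.

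XBmRNA24487 and XBmRNA58611 were highest in IVF of experiment 3, at medians of 10.1 and 69.7 CPM, against 0.913 and 7.54 CPM in experiment 1. XBmRNA24487 was not low in DMSO NT of experiment 3, where the median was 10.7 CPM; it was 0 in all 3 DMSO NT libraries of experiment 2, against 6.12 to 10.8 CPM in IVF. Its ratio, 0.147 over all libraries, was 3.46 without experiment 2. Its DMSO donors of experiment 1 held 0 and 17.7 CPM, against 0 to 1.38 CPM in IVF there. Those of experiments 2 and 3 held at most 0.987 CPM. XBmRNA58611 had DMSO NT medians of 4.16, 5.79 and 34.4 CPM in experiments 1, 2 and 3, against 7.54, 34.7 and 69.7 CPM in IVF. Its NT median was thus lower in each. It was not low in the DMSO donors of experiment 1, at 76.6 and 87.4 CPM against 6.61 to 12.5 CPM in IVF there. Donors of experiments 2 and 3 held at most 0.291 and 7.37 CPM. XBmRNA63269 was steadier, from 3.29 to 13.1 with a median of 5.67 CPM in IVF and from 0.296 to 6.41 with a median of 0.927 CPM in DMSO NT, with all but 2 NT libraries under the IVF range. XBmRNA70173 and XBmRNA29516 reached 22.9 and 13.7 CPM in single DMSO NT libraries, above their IVF medians of 9.53 and 4.15 CPM. The DMSO donors of experiment 1 held 2.97 and 13.8 CPM of XBmRNA29516, against 2.59 to 5.4 CPM in IVF there. Donors of experiments 2 and 3 held at most 0.27 and 0.618 CPM of it.

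Library by library, the shortfall of a member was rarely shared by all NT libraries. A member was at or under 0.5 of the IVF median in 6 to 12 of the 12 DMSO NT libraries, with a median of 8, and the rule itself fixes the low end of that range. In 3 members it was all 12: XBmRNA61438, XBmRNA28137 and XBmRNA78567. Every DMSO NT library was under every IVF library in 2 members, XBmRNA61438 and XBmRNA31616. They were the only 2 of the 3608 donor-low transcripts to meet that condition (0.0554%). The same libraries chose the members, so nothing is read from that share. XBmRNA31616 (XBXL10_1g17019) ranged from 20.6 to 43.7 with a median of 31.9 CPM in IVF and from 0.454 to 17 with a median of 5.78 CPM in DMSO NT. In 104 members at least 1 DMSO NT library lay above the IVF median, in 15 members no NT library lay under the lowest IVF library, and in 116 members at least 1 IVF library was itself at or under 0.5 of the IVF median.

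The level of the list in a library was taken as the median over members of log2((CPM + 0.5)/(IVF median + 0.5)), where the IVF median is that of the CBP30 series. It ran from -0.46 to 0.27 in the 11 IVF libraries. In DMSO NT it lay between -2.13 and -0.36 in experiment 1, between -1.87 and -1.68 in experiment 2 and between -2.16 and -0.70 in experiment 3. The highest NT library, library 3 of experiment 1, lay above the lowest IVF library, which was of the same experiment, so the ranges met at that end.

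Sister NT libraries of 1 experiment differed. In experiment 1 the DMSO NT libraries had 128, 88, 50 and 66 of the 145 members at or under 0.5 of the IVF median, in experiment 2 they had 125, 125 and 121, and in experiment 3 they had 88, 113, 55, 80 and 114. The 3 libraries of experiment 2 were alike, and those of experiments 1 and 3 each spanned more than a 2-fold range. The IVF libraries had 13 to 43 such members.

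**Figure D1:**
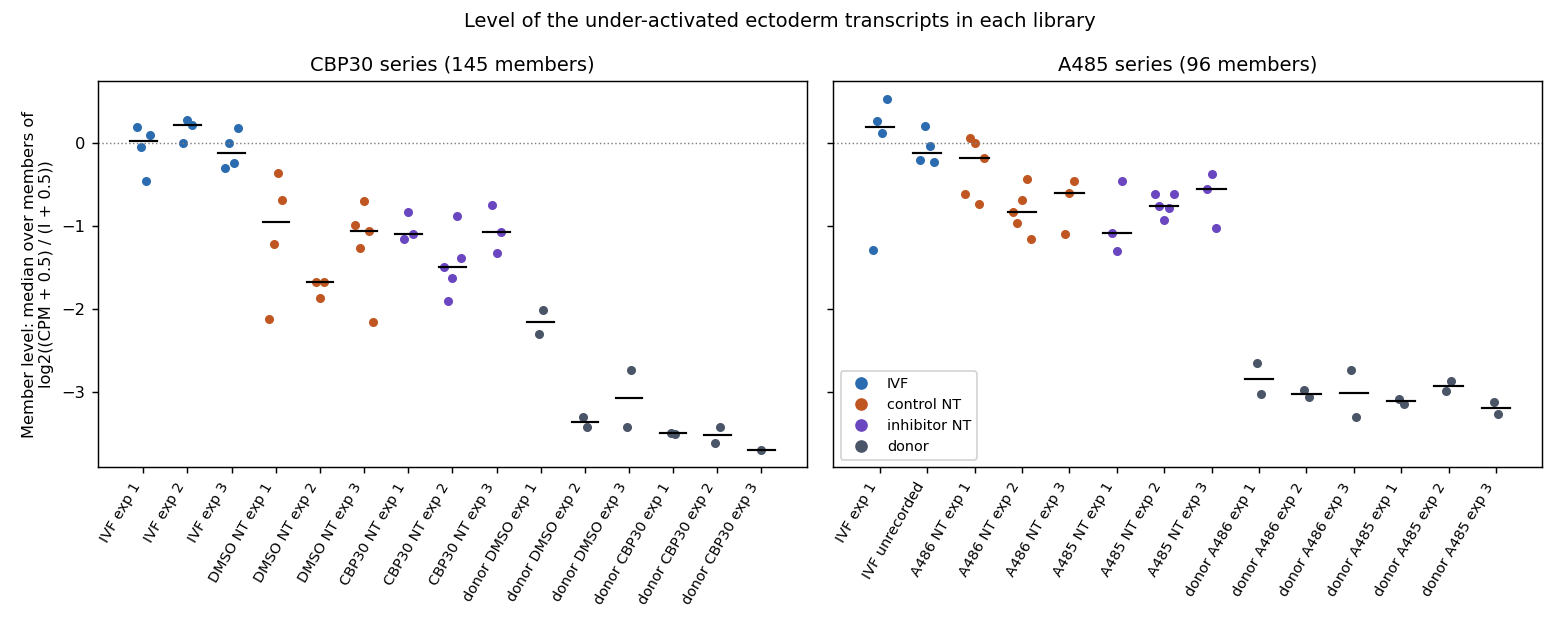
Each point is 1 library, placed by group and experiment; the vertical axis is the median over members of log2((CPM + 0.5)/(I + 0.5)), with I the IVF median of the CBP30 series, bars are medians of the points, and IVF unrecorded marks the 4 files tied to no record. DMSO NT libraries spread from -2.16 to -0.36. IVF libraries of the CBP30 series lie from -0.46 to 0.27 and DMSO donors from -3.43 to -2.01, so both ranges overlap that of DMSO NT. Library 1 of the A485-series IVF group lies at -1.29.

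Set against the IVF libraries of their own experiment, the members were low in some experiments more than in others. In DMSO NT, 72 of 145 members were at or under 0.5 of the IVF median of experiment 1 (4.99% of donor-low transcripts were), 121 of the 144 measured in IVF were in experiment 2 (8.63%), and 80 of 145 were in experiment 3 (3.44%). The median ratio was 0.515, 0.209 and 0.482 in that order, and 9, 6 and 18 members were at or above their IVF median. The same libraries chose the members, so nothing is read from the distance to the background. Only 27 members were at or under 0.5 in all 3 experiments, 76 were in 2, 40 in 1 and 2 in none.

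The IVF side also moved between experiments. The IVF medians of the 3 experiments differed by at least 4-fold in 33 of the 145 members (22.8%) and in 204 of the 3463 other donor-low transcripts (5.89%). These libraries took part in the rule, so nothing is read from that gap. Experiment 2 was the highest for 19 of the 33 and for 74 of all members. XBmRNA65811 (XBXL10_1g34808), for example, measured 192, 124 and 165 CPM in IVF of experiment 2 and 2.96, 2.92, 5.8 and 8.9 CPM in experiment 3, where the DMSO NT libraries measured 17.7, 3.97, 31, 35.6 and 33.7 CPM. It was therefore lower in NT than IVF in experiment 2 and not lower in experiment 3.

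**Figure D2:**
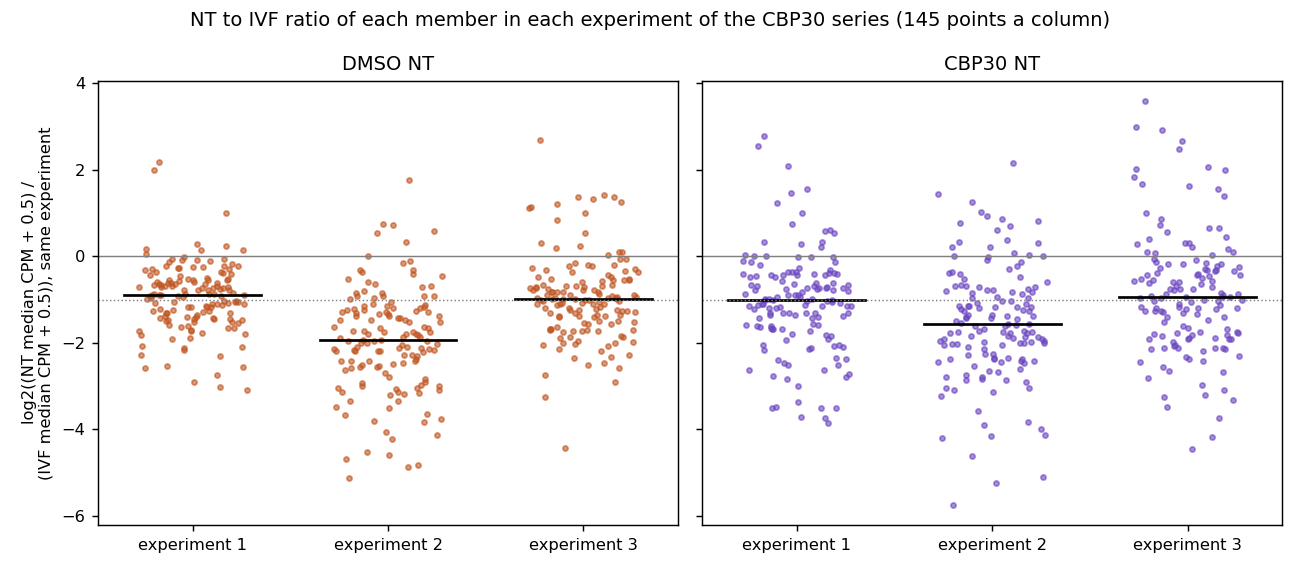
Each point is 1 of the 145 members; the vertical axis is log2 of the NT median plus 0.5 CPM over the IVF median plus 0.5 CPM in the same experiment, bars are medians, and the dotted line marks a ratio of 0.5. DMSO NT of experiment 2 lies lowest, and each column holds members above 0.

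In NT from donors treated with SGC-CBP30 the members were low too. Here the NT libraries took no part in the rule, but the IVF and donor libraries did, so the values are a description. The median over 11 libraries was at or under 0.5 of the IVF median in 98 of 145 members (67.6%), against 4.74% of donor-low transcripts, and at or above it in 12. The median ratio was 0.411. By experiment, 83 of 145 (background 5.83%), 101 of 144 (7.16%) and 74 of 145 (4.94%) members were at or under 0.5, with median ratios of 0.453, 0.290 and 0.494. Members at or under 0.5 in all 3 experiments numbered 45, with 44 in 2, 35 in 1 and 21 in none.

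The list level of the CBP30 NT libraries ran from -1.91 to -0.76 with a median of -1.16, inside the range of DMSO NT, whose median was -1.25. Experiment 2 was the lowest in both, with CBP30 NT libraries from -1.91 to -0.89. In experiments 1, 2 and 3 the median level was -1.10, -1.50 and -1.07 in CBP30 NT and -0.96, -1.68 and -1.06 in DMSO NT. Single members moved in both directions: the CBP30 NT median was above the DMSO NT median in 78 members and below it in 67. Medians over all libraries pool the experiments unevenly, with 3, 5 and 3 CBP30 NT libraries against 4, 3 and 5 of DMSO NT.

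The lowest CBP30 NT ratio to IVF was that of XBmRNA26698 (XBXL10_1g14160), 0.0215. It measured 1.81, 11.5 and 40.4 CPM in CBP30 NT of experiment 1, 1.03, 0.52, 2.38, 2.99 and 0.64 CPM in experiment 2 and 33.6, 0.401 and 5.75 CPM in experiment 3, while IVF ranged from 15.4 to 269 with a median of 110.2 CPM. In DMSO NT it measured 5.09, 155, 152 and 147, then 15.4, 2.58 and 1.24, then 100, 23.4, 23.4, 2.4 and 0.496 CPM in the same order, so libraries of the IVF level and libraries close to 0 occurred within single experiments. The highest ratios were those of XBmRNA35079 (XBXL10_1g19011), 1.85, and XBmRNA65811, 1.67. XBmRNA35079 ranged from 16.2 to 32.5 with a median of 26.8 CPM in CBP30 NT, from 3.12 to 32.4 with a median of 14.5 CPM in IVF and from 1.54 to 23.3 with a median of 6.48 CPM in DMSO NT.

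Between CBP30 and DMSO NT the edgeR quasi-likelihood test called 0 of 138 members tested at an adjusted p under 0.05, and 0.0% of all 25668 targets. At an unadjusted p under 0.05 there were 28 members (20.3%) against 4.47% of all targets, and the DESeq2 Wald test called 1 member. The DMSO NT libraries entered the rule with low values, which places a bias towards higher values in the other group, so these counts support nothing. The median log2 fold change was 0.03 over the members and -0.01 over all targets. These values come from fits without experiment as a block, so they also hold differences between experiments.

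In the donors of the CBP30 series the list level ran from -3.43 to -2.01 in DMSO and from -3.70 to -3.42 in CBP30. The top of the DMSO donor range lay above the DMSO NT libraries at -2.13 and -2.16. The higher DMSO donors were both libraries of experiment 1, at -2.31 and -2.01, and library 2 of experiment 3, at -2.74. In those 3 libraries XBmRNA30610 measured 209, 79.5 and 89.2 CPM, and XBmRNA32819 measured 5.31, 113 and 231 CPM in the same order. For XBmRNA32819 the IVF median was 11.8 CPM, so 113 and 231 CPM lay above it, although the donor median was 2.89 CPM. XBmRNA30610 stayed under the IVF libraries of the same experiments, whose lowest values were 237 and 124 CPM.

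The A485 series took no part in the rule, and 96 members could be followed there. Against the CBP30-series IVF median the list level of its IVF libraries was -1.29, 0.26, 0.11 and 0.53, and that of the unrecorded IVF libraries ran from -0.24 to 0.20. The A486 NT libraries lay between -0.74 and 0.05 in experiment 1, between -1.16 and -0.44 in experiment 2 and between -1.11 and -0.46 in experiment 3. The A485 NT libraries lay between -1.31 and -0.47 in experiment 1, between -0.93 and -0.61 in experiment 2 and between -1.02 and -0.37 in experiment 3, and the donors of both kinds between -3.30 and -2.66. A486 and A485 NT of experiment 1 overlapped the IVF range through IVF library 1 alone; the other 3 IVF libraries lay above all of these NT libraries. A486 NT of experiment 2 lay below every unrecorded IVF library.

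In experiment 1, 13 of the 90 members tested were lower in the 5 A486 NT libraries than in the 4 IVF libraries at an adjusted p under 0.05, or 14.4%, and 4 were higher, or 4.44%. Of all 20627 targets tested, 13.3% were lower and 14.6% were higher, and 13.8% of donor-low transcripts were lower. With IVF library 1 kept, the share of members called lower was near the background. Their median log2 fold change was -0.39, against 0.00 over all targets. Without IVF library 1 there were 20 lower and 3 higher, and leaving out any other library gave 9 to 13 lower. No share over all targets is set beside these counts, so they are not read against the background. Among the 28 tested members of equal target length, 2 were lower and their median was 0.02.

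In experiment 2, 40 of 90 members tested were lower in the 5 A486 NT libraries than in the 4 unrecorded IVF libraries, or 44.4%, and 11 were higher, or 12.2%. Among all 20438 targets tested 9.81% were lower and 11.0% higher, and 10.2% of donor-low transcripts were lower. The median log2 fold change of the members was -1.25, against 0.02 over all targets. Of the 28 members of equal length, 13 were lower, with a median of -1.24. Since no label ties those IVF files to experiment 2, an experiment difference and an NT difference cannot be told apart in this comparison. It shares no library with that of experiment 1.

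**Figure D3:**
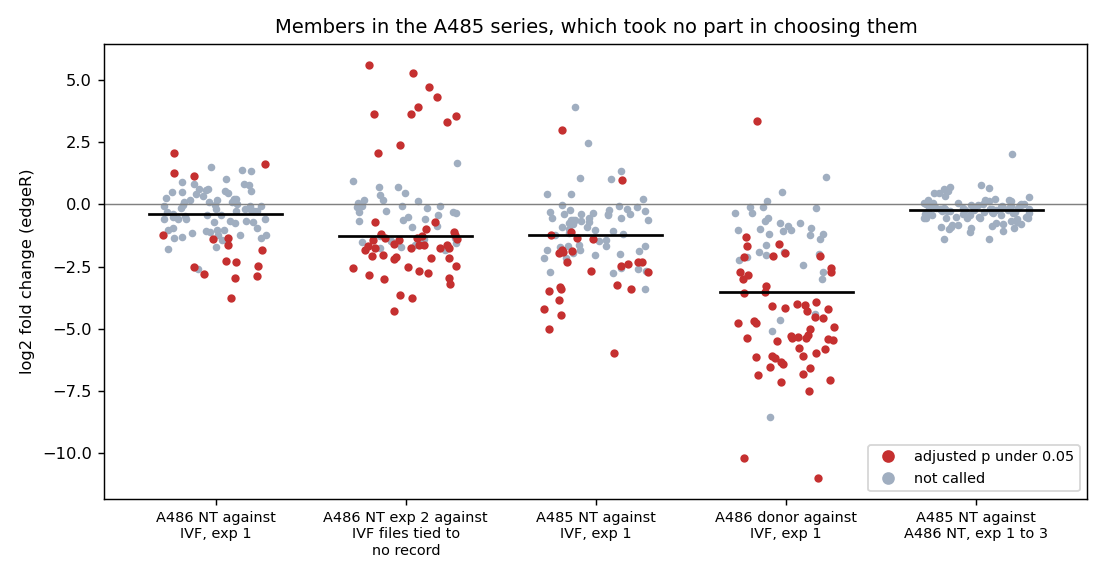
Each point is 1 tested member and the vertical axis is the edgeR log2 fold change in 5 comparisons of the A485 series; red marks an adjusted p under 0.05 and bars are medians over members. The medians are -0.39, -1.25, -1.21, -3.53 and -0.22 from left to right, and the second column has 11 members called higher.

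Both comparisons called 6 members lower, which is 46.2% of the 13 and 15% of the 40. As 44.4% of all tested members were called lower in experiment 2, the overlap is near the background and nothing is read from it. They were XBmRNA30610, XBmRNA32819 (XBXL10_1g17803), XBmRNA42046 (XBXL10_1g22562), XBmRNA73652 (XBXL10_1g39046), XBmRNA76829 (XBXL10_1g40790) and XBmRNA78567 (XBXL10_1g41697). Only XBmRNA73652 has the same length, 1894 bases, in both series; the other 5 were chosen for description after their values were seen.

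XBmRNA30610 measured 4024, 1092, 1305 and 1377 CPM in IVF of experiment 1 and 1060.0, 1105, 953 and 1028 CPM in the unrecorded IVF libraries. In A486 NT it measured 162, 419, 425, 299 and 405 CPM in experiment 1 and 137, 189.5, 112, 208 and 78.1 CPM in experiment 2, so every NT library lay below every IVF library in both (log2 fold change -2.47, SE 0.47, adjusted p = 0.0055 in experiment 1; log2 fold change -2.97, SE 0.28, adjusted p = 0.000335 in experiment 2). It was called in all alternatives of both comparisons that gave it a value. In the A485 NT libraries it stayed in the A486 NT range, at 90.7 to 397 CPM.

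XBmRNA32819 measured 244, 78.2, 84.4 and 104 CPM and 106, 162, 215 and 134 CPM in the recorded and unrecorded IVF libraries, and 14.8, 42.9, 22.9, 17.8 and 25.8 CPM and 23.6, 11, 36.8, 53.4 and 26.1 CPM in A486 NT of experiments 1 and 2. The groups did not overlap in either experiment (-2.32 and -2.49 on the log2 scale, adjusted p = 0.00554 and 0.00688). It is the member nearest the donor limit of the rule. In a DMSO donor of CBP30-series experiment 3 it reached 231 CPM, above its IVF median of 11.8 CPM in that series. In A486 donors of experiment 1 it was lower than in IVF (log2 fold change -5.77).

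XBmRNA76829 measured 331, 87.4, 74 and 149.6 CPM and 161, 137, 164 and 51.1 CPM in the same IVF libraries, and 11.2, 52.9, 33.4, 14 and 26.3 CPM and 12.5, 5.62, 33, 39.5 and 7.38 CPM in the same NT libraries, again without overlap (-2.50 and -2.81, adjusted p = 0.0141 and 0.0235); the experiment 2 call was lost in 2 of 13 alternatives, with adjusted p of up to 0.0573. XBmRNA42046 was scarce, at 34, 4.39, 6.88 and 6.42 CPM in IVF of experiment 1 and 0.495, 1.0, 1.49, 0.641 and 1.03 CPM in A486 NT there (-3.74 and -3.64 in the 2 experiments). XBmRNA78567 measured 67.5, 7.47, 16.8 and 19.1 CPM in IVF of experiment 1 and 1.78, 4.95, 5.65, 1.69 and 3.37 CPM in A486 NT (-2.95 and -2.68). In experiment 3, which has no recorded IVF file here, that member reached 20.7, 27.9 and 26.4 CPM in A486 NT, above 3 of the 4 IVF values of experiment 1. Among the alternatives the experiment 1 log2 fold change shrank to -1.75 for XBmRNA32819 and -1.82 for XBmRNA76829. It shrank to -2.54 for XBmRNA42046 and -1.84 for XBmRNA78567, and none of these members lost its experiment 1 call.

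XBmRNA73652 measured 22.3, 84.8, 76 and 108 CPM in IVF of experiment 1 and 16.7, 42.8, 22.2, 28.6 and 26.4 CPM in A486 NT (log2 fold change -1.33, SE 0.41, adjusted p = 0.0385), and 39.2, 67.1, 82 and 41 CPM in unrecorded IVF against 13, 26.3, 29.4, 38.3 and 14.7 CPM in A486 NT of experiment 2 (log2 fold change -1.36, SE 0.38, adjusted p = 0.0356). In experiment 1 IVF library 1 lay within the NT range, and in experiment 2 the lowest IVF value was just above the highest NT value. Its adjusted p rose to as much as 0.0951 and 0.0927 among the alternatives of the 2 comparisons.

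Other members went in opposite directions. XBmRNA33270, XBmRNA65811, XBmRNA65820 and XBmRNA66127 were lower in A486 NT in experiment 1 and higher in experiment 2. The reverse was seen in 0 members, and XBmRNA81938 (XBXL10_1g43547) was higher in both. No share over all targets is set beside these counts, so they are not read as particular to the members. Only XBmRNA65811 kept both calls in all alternatives that gave it a value. In experiment 1 the call was lost in 8 of 13 alternatives for XBmRNA65820, 7 of 14 for XBmRNA66127, 6 of 14 for XBmRNA81938 and 1 of 13 for XBmRNA33270, with adjusted p of up to 0.108, 0.333, 0.103 and 0.405. In experiment 2 it was lost in 6 of 12 for XBmRNA33270, with adjusted p of up to 0.105. Without IVF library 1 the experiment 1 calls of XBmRNA65820, XBmRNA66127 and XBmRNA81938 were lost, at -0.78, -1.18 and 1.02 on the log2 scale. XBmRNA66127 measured 3473, 1132, 1590.0 and 1915 CPM in IVF of experiment 1 and 5.92, 6.61, 7.16 and 18.5 CPM in the unrecorded IVF libraries, which did not come near each other. A486 NT of experiment 2 measured 267, 572, 332, 495 and 489 CPM, between the 2 sets of IVF libraries (log2 fold change -1.61, SE 0.46, adjusted p = 0.0297 in experiment 1; log2 fold change 5.30, SE 0.42, adjusted p = 0.000248 in experiment 2).

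These members differed between the 2 sets of IVF libraries. Of the 96 members, 10 were at least 4-fold higher in IVF of experiment 1 than in the unrecorded IVF libraries and 0 were at least 4-fold lower, or 10.4% in either direction, against 38 and 20 of 1883 other donor-low transcripts, or 3.08%. Without IVF library 1 there were 10 higher and 1 lower, or 11.5%, against 3.45%. The 10 found higher with all libraries were XBmRNA26869, XBmRNA47955, XBmRNA65811, XBmRNA65817, XBmRNA65820, XBmRNA66113, XBmRNA66118, XBmRNA66122, XBmRNA66127 and XBmRNA74441. Of these, 9 were among the 11 called higher in A486 NT of experiment 2. Both lists rest on low values in the same unrecorded IVF libraries, so the overlap is partly built in and nothing is read from it. XBmRNA74441 (XBXL10_1g39499), with 0, 0.0981, 0.115 and 0.112 CPM in the unrecorded IVF libraries and 0.773, 14.7, 2.54, 4.33 and 5.37 CPM in A486 NT of experiment 2, had a log2 fold change of 5.62. In IVF of the CBP30 series, whose libraries took part in the rule, XBmRNA66127 measured 66.1, 73.8, 238 and 330.5 CPM in experiment 3 against 1887, 1984 and 2034 CPM in experiment 2.

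**Figure D4:**
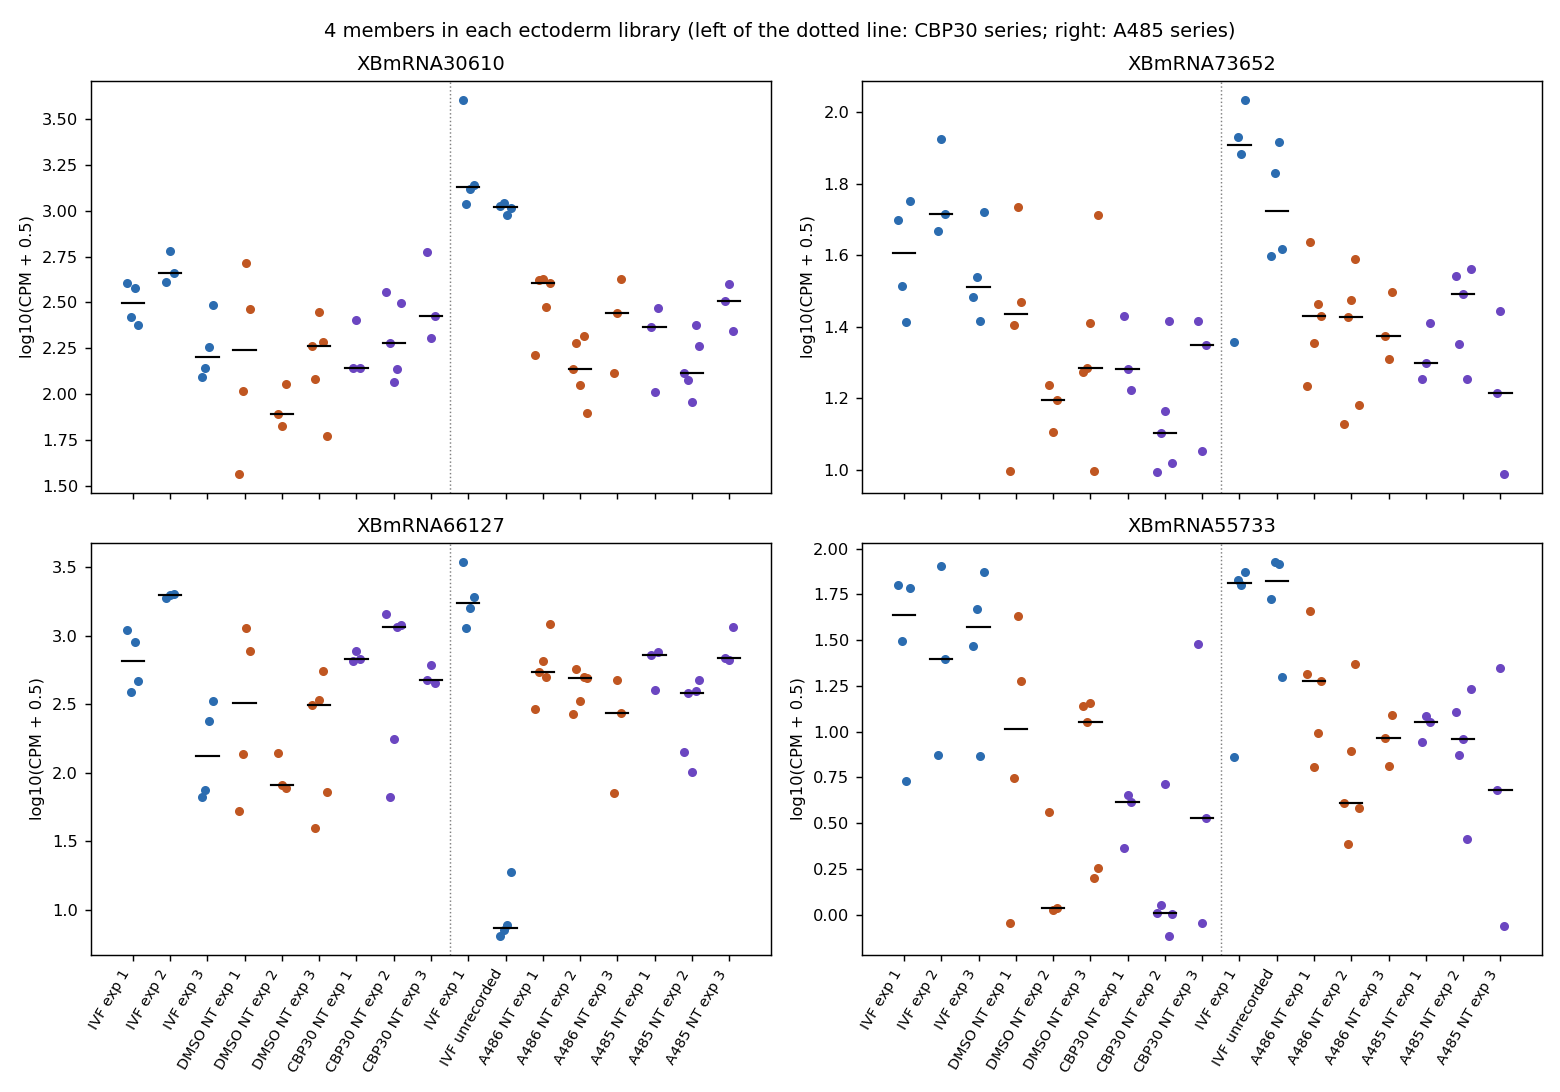
Each point is 1 ectoderm library and the vertical axis is log10(CPM + 0.5), a log scale; panels are XBmRNA30610, XBmRNA73652, XBmRNA66127 and XBmRNA55733, bars are medians, and IVF unrecorded marks the 4 files tied to no record. XBmRNA30610 is lower in A486 NT than in both IVF sets of the A485 series, and XBmRNA66127 falls to 5.92 to 18.5 CPM in the unrecorded IVF libraries.

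Most members, all but 13 of the 90 tested, were not called lower in experiment 1 of the A485 series. XBmRNA31616, of equal length in both series, measured 7.57, 3.71, 3.36 and 15.9 CPM in IVF there and 3.96, 5.53, 5.91, 1.92 and 5.35 CPM in A486 NT (-0.70, adjusted p = 0.335), while in experiment 2 unrecorded IVF measured 12.4, 27.5, 15.2 and 23.8 CPM and A486 NT 0.309, 0.604, 2.34, 1.61 and 0.403 CPM (log2 fold change -4.29, SE 0.51, adjusted p = 0.00114). XBmRNA63501 (XBXL10_1g33619) was higher in A486 NT of experiment 1, at 12.3, 11.3, 11.6, 12.3 and 13.7 CPM against 4.63, 3.43, 3.99 and 4.4 CPM in IVF (log2 fold change 1.62, SE 0.15, adjusted p = 0.000197), a call lost in 1 of 14 alternatives, the fit of all A486 NT against all 8 IVF libraries (adjusted p = 0.109).

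A485 NT of experiment 1, set against the same 4 IVF libraries, had 25 of 89 members lower (28.1%) and 2 higher (2.25%), where 8.22% of all targets were lower and 10.7% higher; the median log2 fold change was -1.21. Leaving out 1 library moved the count of lower members from 25 to between 2 and 32: it was 2, 7 and 14 without A485 NT libraries 1, 2 and 3, 32, 16, 15 and 13 without IVF libraries 1, 2, 3 and 4. With members of equal length alone it was 2 of 28. The counts with a library left out have no share over all targets beside them and are not read against the background. XBmRNA30610 measured 232, 102 and 293 CPM in these NT libraries (-3.39), XBmRNA76829 3.98, 2.23 and 10.3 CPM (-5.02) and XBmRNA1436, of equal length, 78.2, 37.2 and 99.8 CPM against 129.9, 206, 235 and 131 CPM in IVF (-1.40, adjusted p = 0.0398). The call of XBmRNA1436 was lost in 5 of 11 alternatives, with adjusted p of up to 0.109. For XBmRNA1436 the A486 NT libraries of the same experiment measured 139, 239.7, 225, 155 and 197 CPM, which overlapped IVF.

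The low donor level was seen in the A485 series as well. Of 93 members tested, 56 (60.2%) were lower in the 2 A486 donor libraries of experiment 1 than in IVF and 1 was higher, against 23.1% of all targets lower and 24.5% higher. Of the donor-low transcripts 63.3% were lower, so the share among members was close to theirs, while the median log2 fold change was -3.53 in members and -1.39 in donor-low transcripts. The count was 66 without IVF library 1, and 34 and 29 without the first and the second donor library, which leaves a lone donor assumed to vary like the IVF group. The counts with a library left out have no share over all targets beside them either. This comparison and those of A486 and A485 NT in experiment 1 share the 4 IVF libraries.

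Over all 6 A486 donors the median was at or under 0.25 of the IVF median of experiment 1 in 78 of 96 members, at or under 0.25 of that of the unrecorded IVF libraries in 69, and above the IVF median of experiment 1 in 1. XBmRNA25242 (XBXL10_1g13310) did not act as a donor-low transcript there. It was the most abundant member in all 12 donor libraries of the A485 series, at 173 to 878 CPM, although its DMSO donor median in the CBP30 series was 1.42 CPM. Its target is 2276 bases long in the CBP30 files and 6150 bases long in the A485 files. XBmRNA62382 (XBXL10_1g33050), of equal length, was the member called higher in the donors (log2 fold change 3.37, SE 0.69, adjusted p = 0.0072).

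Between A485 NT and A486 NT, the catalytic inhibitor and its relative, no member differed past the threshold over 3 experiments. edgeR called 0 of 90 members and 0.0339% of all targets, and the DESeq2 Wald test 0 members. At an unadjusted p under 0.05 there were 11 members, or 12.2%, against 9.53% of all targets. The log2 fold change was negative in 67 members and positive in 23, with a median of -0.22, against 0.02 over all targets and 0.06 over donor-low transcripts. That lean was not seen in each experiment. The median list level was lower in A485 than in A486 NT in experiment 1, at -1.09 and -0.18. It was slightly higher in experiment 2, at -0.76 and -0.83, and in experiment 3, at -0.56 and -0.61. Members that vary together are not separate observations, so the split is a description. For XBmRNA30610 it was -0.33 with an SE of 0.33, and for XBmRNA66127 0.12 with an SE of 0.37; a p that misses the threshold does not show that the groups act alike. With experiment as a block the count of members stayed 0. The fold changes, SEs and unadjusted p shares above come from the fit without that block, so they also hold differences between experiments.

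Experiments 1, 2 and 3 taken alone called 3 of 92, 2 of 87 and 3 of 90 members, against 1.16%, 0.5% and 0.474% of all targets. In 9 of 90 members (10.0%, against 2.69% of all targets) the difference between A485 and A486 NT itself differed between experiments, by an edgeR test of the treatment by experiment terms. XBmRNA49356 (XBXL10_1g26433) measured 17.9, 38.7, 17.8, 28.3 and 21.1 CPM in A485 NT and 1.08, 1.45, 1.23, 2.92 and 2.95 CPM in A486 NT of experiment 2, without overlap. In experiment 1 the order was the other way, 18, 5.89 and 23.9 CPM against 32.3, 46, 69.8, 29.6 and 51.5 CPM (interaction adjusted p = 0.000625).

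XBmRNA35079 measured 39.8, 35.9 and 29.1 CPM in A485 NT and 7.48, 7.03 and 4.86 CPM in A486 NT of experiment 3, and 6.52, 7.09, 4.76, 5.73 and 6.72 CPM and 15.8, 84.3, 18, 19.1 and 22.1 CPM in experiment 2, so the groups separated in opposite directions (adjusted p = 0.000973). XBmRNA41968 had log2 fold changes of -0.50, -2.55 and 3.78 in experiments 1, 2 and 3; its groups separated in experiment 3, at 12.9 to 16.3 CPM in A485 NT against 0.676 to 1.99 CPM in A486 NT, and overlapped in experiment 2, at 0 to 0.972 against 0 to 4.43 CPM (interaction adjusted p = 0.00219). XBmRNA58135 (XBXL10_1g30802) was lower in A485 NT of experiment 1, at 5.43, 7.09 and 8.26 CPM against 25.2, 34.3, 34.1, 21.8 and 34.1 CPM, with log2 fold changes of -2.32, -0.44 and -0.67 (adjusted p = 0.0161). XBmRNA78959 (XBXL10_1g41972), of equal length, was the member with log2 fold changes of 1.76, -0.39 and 2.48. The other 4 were XBmRNA81938, XBmRNA46226 (XBXL10_1g24767), XBmRNA83098 (XBXL10_1g44201) and XBmRNA48581. Without experiment 2 the count fell to 1 of 90, against 0.624% of all targets.

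Between libraries of 1 group and 1 experiment, some members moved together with 1 of 2 chosen reference members. To describe this, log2(CPM + 0.5) was centred on the mean of each group and experiment, and Pearson's r with a reference member was taken over the 34 ectoderm libraries of the CBP30 series and, apart from them, over the 32 of the A485 series. The libraries behind each r share depth and base composition as well as tissue. The IVF and DMSO NT libraries of the CBP30 series took part in the rule. Nothing is therefore read from the gap between members and other donor-low transcripts in that series. The references were the most abundant member, XBmRNA66118, and the member lowest in CBP30 NT, XBmRNA26698, and both were picked after values were seen. That 2 sets are described follows from this choice and is not a result.

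With XBmRNA66118, r was at least 0.7 in 11 of 144 members (7.64%) in the CBP30 series and in 8 of 95 (8.42%) in the A485 series, against 0.837% and 0.638% of the other donor-low transcripts. Of the 11, 9 had an identifier in the A485 series, and 7 of those were at 0.7 or more there too. The 7 were XBmRNA66122, XBmRNA66113, XBmRNA66127, XBmRNA74441, XBmRNA65817, XBmRNA65820 and XBmRNA65811. Reads shared between targets can tie their values, and the part of that was not tested. XBmRNA74441 reached 0.74 and 0.77 and XBmRNA65811 0.74 and 0.84. Without IVF library 1 of the A485 series the count there was 6 of 95, and 6 of the 7 named were still at 0.7 or more, with XBmRNA65820 at 0.68. An r of -0.5 or less was seen in 0 of 144 members in the CBP30 series, against 2.74% of the other donor-low transcripts. In the A485 series it was seen in 9 of 95 (9.47%), against 11.8%.

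With XBmRNA26698, r was at least 0.7 in 23 of 144 members (16.0%) and in 10 of 95 (10.5%), against 0.953% and 0.584% of the other donor-low transcripts. Of the 23, 15 had an identifier in the A485 series, and only 6 of those were at 0.7 or more there too. The 6 were XBmRNA55733, XBmRNA1784 (XBXL10_1g1138), XBmRNA20810 (XBXL10_1g11058), XBmRNA4017 (XBXL10_1g2176), XBmRNA869 (XBXL10_1g691) and XBmRNA7391 (XBXL10_1g4046), of which 4 are of equal target length in both series. The rest of the 15 were under 0.7 there, such as XBmRNA20424 at 0.80 in the CBP30 series and 0.20 in the A485 series. The r of XBmRNA26698 with XBmRNA66118 was 0.24 in the CBP30 series and -0.52 in the A485 series, where it was -0.37 without IVF library 1, so no shared direction of the 2 sets is read from it. Without that library 7 of 95 members were at 0.7 or more, and of the 6 named XBmRNA20810 was at 0.66 and XBmRNA4017 at 0.64. An r of -0.5 or less with XBmRNA26698 was seen in 3 of 144 members (2.08%) in the CBP30 series, against 8.89% of the other donor-low transcripts. In the A485 series it was seen in 7 of 95 (7.37%), against 4.89%. Members vary more than other donor-low transcripts, and the part of that in these shares was not tested.

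Single libraries show how far such members differed between sisters. In A485 NT of experiment 2, XBmRNA26698 measured 68.8, 1.65, 81.7, 0.603 and 82.4 CPM and XBmRNA65811 measured 4.83, 38, 3.8, 32.4 and 32.1 CPM in libraries 1 to 5: libraries 2 and 4 were near 1 CPM for the former and among the highest for the latter, and libraries 1 and 3 the reverse, while library 5 was high for both. IVF library 1 of experiment 1 held 1.35 CPM of XBmRNA26698 against 97.3, 109.6 and 154 CPM in the other 3, and 958 CPM of XBmRNA65811 against 201, 359.8 and 206 CPM. In A486 NT of experiment 2 XBmRNA26698 measured 60.4, 1.4, 73.3, 100.4 and 5.07 CPM, with libraries 2 and 5 low.

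Members were more variable than other donor-low transcripts in libraries that took no part in the rule. In A486 NT of experiments 1, 2 and 3 the median SD of log2(CPM + 0.5) between libraries was 0.63, 0.67 and 0.42 over the 96 members, against 0.23, 0.26 and 0.23 over 1883 other donor-low transcripts. In A485 NT it was 0.65, 0.50 and 0.57 against 0.27, 0.23 and 0.17. In IVF of experiment 1 it was 0.98 against 0.31, and without library 1 it was 0.42 against 0.28. In the unrecorded IVF libraries it was 0.52 against 0.25. A description by medians over transcripts gives no error of its own, and transcripts are not replicates. The sets were not matched on expression level, and the part of level in these SDs was not tested.

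**Figure D5:**
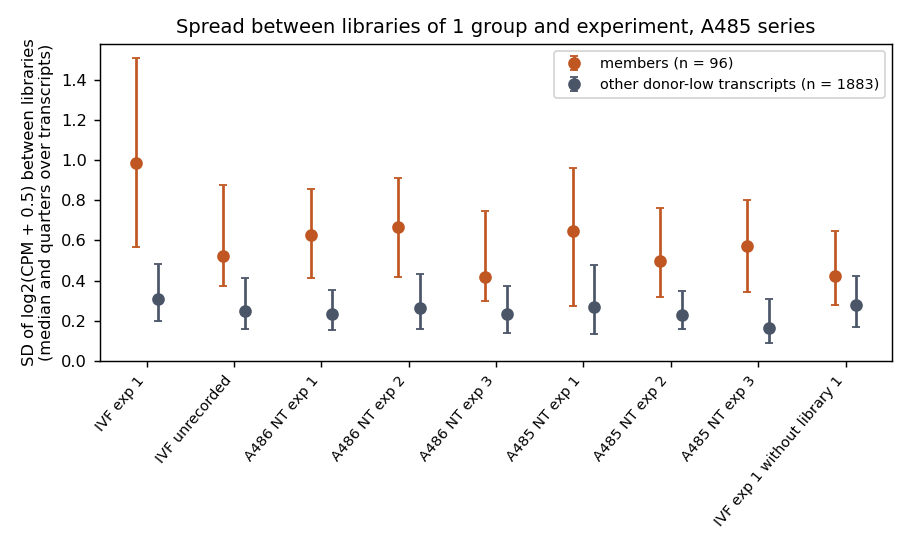
Points are the median, and bars the range from the lower to the upper quartile, over transcripts of the SD of log2(CPM + 0.5) between libraries of 1 group and experiment in the A485 series; 96 members are set beside 1883 other donor-low transcripts. The members lie above the others in every column, and the gap is smallest in IVF without library 1, at 0.42 against 0.28.

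The members also resembled the other donor-low transcripts in length and in fractional counts, and differed in other features. Their median target length was 1881 bases against 1748 for the 3463 other donor-low transcripts. Fractional expected counts in at least 6 of the 11 IVF libraries, a mark of reads shared with other targets, occurred in 67.6% of members and 66.3% of the others. The median donor to IVF ratio, on which both sets were chosen, was 0.0619 against 0.142. Identifiers were also present in the A485 series for 66.2% of members and 54.4% of the others. The median IVF level was 9.53 CPM against 13.3 CPM, and within the IVF libraries that chose them the median SD was 0.69 against 0.24.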

How the data were processed

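Poly(A) RNA of ectoderm and donor endoderm was sequenced in paired reads of 50 bases. The deposited tables hold, per target, expected counts, TPM and target length (a value of other kind), per the file headers; they list 1 library each. The submitters' processing notes name kallisto 0.48, R 4.3.1 and DESeq2 1.40.2; the genome build and annotation are not given in the sources used here. CPM was computed as the deposited expected counts over the library sum. The members and lists were chosen with earlier results of these data known. Rounded expected counts were tested in R 4.3.3 with edgeR 4.0.16 (TMM, filterByExpr, robust quasi-likelihood F test, two-sided, Benjamini-Hochberg over all targets, threshold 0.05), with limma 3.58.1 loaded. DESeq2 1.42.0, other filters and scalings, left-out libraries and an experiment block were alternatives. The tests were run on simulated counts with a single fixed dispersion, no experiment effect and no outlying library. That check does not cover the spread of the members. Figures and summaries used Python 3.11.15, pandas 2.3.3 and matplotlib 3.10.9.

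Named members are the 10 with the lowest NT to IVF ratio, the 10 with the highest IVF median, those of equal target length lower in both A486 NT comparisons, and up to 10 each by adjusted p for the A485 against A486 NT, interaction and CBP30 against DMSO NT tests; others named were chosen after their values were seen. Experiment numbers, from the labels, pair the treatments: deviations from group means correlated between NT groups of the same number at 0.60, 0.72 and 0.76 in the A485 series and 0.61, 0.68 and 0.62 in the CBP30 series. Of 115 records, 8 IVF records of the A485 series and 22 records of somite-series tissue were left out as not analysed here. For a single CPM value, without molecular identifiers, depth covers counting error alone. The tests took their error from the spread between libraries, which may be technical.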

Additional observations from a re-analysis of the deposited data

Results flagged for a closer look

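Of 82 group, member and experiment sets of 4 to 10 libraries, 8 had a library farther from the others than Dixon's limit, where about 4.1 are reached at 1 in 20 by chance. IVF library 1 of the A485 series accounts for 4 of the 8: the summed CPM of the members was 25951 there, XBmRNA30610 measured 4024 CPM, XBmRNA32819 243.7 CPM and XBmRNA42046 34.05 CPM. The other 4 were XBmRNA32819 at 31.39 CPM in IVF library 4 of CBP30-series experiment 3 and at 36.35 CPM in A485 NT library 1 of experiment 2, XBmRNA42046 at 7.461 CPM in the third unrecorded IVF library, and XBmRNA76829 at 3.487 CPM in DMSO NT library 1 of experiment 1. The cause of these values was not tested.

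The difference between A485 and A486 NT differed between experiments, by the edgeR test of the treatment by experiment terms over 24 libraries, in 9 members. The adjusted p was 0.0006249 for XBmRNA49356, 0.0009732 for XBmRNA35079, 0.002194 for XBmRNA41968, 0.0046 for XBmRNA78959, 0.01136 for XBmRNA81938, 0.01612 for XBmRNA58135, 0.02361 for XBmRNA46226, 0.03441 for XBmRNA83098 and 0.0452 for XBmRNA48581. Across the same 9, 0.269, 0.0895, 0.215, 0.369, 0.314, 0.941, 0.343, 0.869 and 0.685 were the largest adjusted p among the fits that left out 1 experiment.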

How the results depend on the processing

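Of the alternative values of the list and its comparisons, 88 stayed near the reported value and 33 moved; of the test values of named members, 379 kept their call and 81 lost it, and of their ratios of DMSO NT to IVF, 116 stayed at or under 0.5, 23 lay between 0.5 and 1 and 1 reversed. The one reversal was the DMSO NT to IVF ratio of XBmRNA24487, which was 3.46 without experiment 2 and 0.147 in all. The list held 156 transcripts with TMM scaling (128 shared), 100 with means (72), 139 with medians of experiment medians (103) and 148 with XBmRNA sums (144). It held 200, 123 and 200 without experiments 1, 2 and 3 (87, 66 and 108 shared), where 200 is the rule's maximum. In 2 alternatives chosen after seeing the data it held 200 without the DMSO donors of experiment 1 (137 shared) and 183 without DMSO NT library 3 of experiments 1 and 3 (143).

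Donor levels depended on the pseudocount. With pseudocounts of 0.1 and 2, they were -3.917 and -1.927 in DMSO, -4.949 and -2.27 in CBP30, -4.085 and -1.907 in A485 and -3.914 and -1.802 in A486 donors. TMM scaling gave -3.378 in CBP30 and -2.778 in A485 donors.

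Members lower in A486 NT of experiment 1 numbered 9 to 20 with a library left out, 2 with equal lengths and 33 with all A486 NT against all 8 IVF libraries. In experiment 2 they numbered 29 to 43, and 13 with equal lengths. In A485 NT they numbered 2 to 32 (2, 7 and 14 without NT libraries 1, 2 and 3; 32, 16, 15 and 13 without IVF libraries 1, 2, 3 and 4), 11 with no filter and 2 with equal lengths. In A486 donors they numbered 29 to 66 (34 and 29 without donor libraries 1 and 2), 31 where each library had to hold 10 counts and 13 with equal lengths. Equal lengths leave fewer members to count; the cause of the other moves was not tested. A485 against A486 NT gave 3, 2 and 3 members in experiments 1, 2 and 3 alone. CBP30 against DMSO NT gave 1 by the DESeq2 Wald test, 3 without experiment 3 and 2 in experiment 2 alone. The interaction gave 1 without experiment 2. With the experiment number as a replicate block, both treatment comparisons called 0 members, as without it, while the count over all targets rose from 7 to 35 in the A485 series. Where no share over all targets was given for an alternative, its count is not read against a background. Members under 5 CPM in IVF limit the precision of single values.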
